A study of Homo sapiens with 16 samples.

Results

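The 8 A549 libraries were taken from a series of 16 libraries, the other 8 being from SUM159, and were chosen by cell line alone. For every gene the level in the combination was set against the level that the drugs given singly would add up to on the log2 scale. A549 cells are an established line from a human lung adenocarcinoma, and SUM159 cells come from a breast cancer that is triple negative. The 4 groups of A549 were untreated cells (UT), cells given 2 µM palbociclib (PD), cells given 3 µM indisulam (IN) and cells given both at those doses (P+I), all for 16 h and with 2 libraries each. The study calls these duplicates technical, so the p-values measure only the spread between such duplicates. The labels name no genetic change in any of the groups, and each drug was sampled at 1 dose and 1 time. The SUM159 libraries had the same 4 groups, doses and time, with 2 libraries each. The question was whether the drugs together changed gene expression by more or by less than the sum of their separate effects.

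Palbociclib inhibits CDK4 and CDK6, the cyclin D-dependent kinases that phosphorylate RB1. Hypophosphorylated RB1 holds E2F transcription factors in check, and E2F target genes supply DNA replication and, through later factors, mitosis. Indisulam recruits the splicing factor RBM39 to the DCAF15 ubiquitin ligase, after which RBM39 is degraded and splicing of many transcripts is disturbed. CDK2 with cyclin E can also phosphorylate RB1, and it is activated by the CDK-activating kinase, which is made of CDK7, cyclin H and MNAT1. In lung epithelial cells these pathways decide whether a cell enters S phase or leaves the cycle.

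Total gene counts ran from 18306636 to 34075588 per library, with the second palbociclib library the deepest, and 3 counts, the floor used here, corresponded to 0.0880 to 0.164 CPM (counts scaled to a library of 1000000 counts). All 11 epithelial and A549 markers, among them EPCAM, KRT8, KRT18 and ALDH1A1, were above 5 CPM on average. Summed markers of leukocytes reached at most 13 CPM, those of endothelial cells 1.64 CPM and those of fibroblasts 5.14 CPM, with CD3E and COL1A2 at 0 counts in every library. The share of reads in no annotated feature was 4.02% and 4.57% in UT, 4.71% and 4.17% in PD, 5.70% and 5.97% in IN, and 4.83% and 5.66% in P+I.

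Departure was the log2 change of the combination against untreated cells minus the log2 changes of palbociclib and of indisulam. A departure of 0 means that the fold changes multiply. Of 15744 genes tested, 556 departed from the sum at an adjusted p under 0.05 in edgeR's quasi-likelihood test, which is 3.53% of the genes tested. 234 genes (1.49%) lay above the sum and 322 (2.05%) below it. The median departure of all genes was -0.01, and 5% of genes lay below -0.67 and 5% above 0.49. The median size of a called departure was 0.42 and 31 called genes departed by at least 1. The count depended on which library was left out: it was 123 without UT number 1, 156 without UT number 2, 148 without PD number 2, 87 without IN number 1, 52 without IN number 2, 976 without P+I number 1 and 898 without P+I number 2. DESeq2 called 343, of which 185 were above and 158 below, and edgeR with relative log expression scaling called 614, of which 336 were above and 278 below.

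A sum of at least 0.2 in size was treated as a predicted rise or fall. By that rule 123 called genes went beyond the sum and 351 fell short of it, while 82 departed from a sum under 0.2 in size. Beyond the sum, 114 genes went further down than predicted and 9 went further up. Short of the sum, 161 genes rose less than predicted and 190 fell less than predicted. In 72 of the 351 the combination lay on the other side of the untreated level from the sum. The sum and the departure share the untreated and single-drug libraries with opposite sign, so an error in those libraries moves a gene toward the short side.

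**Figure D1:**
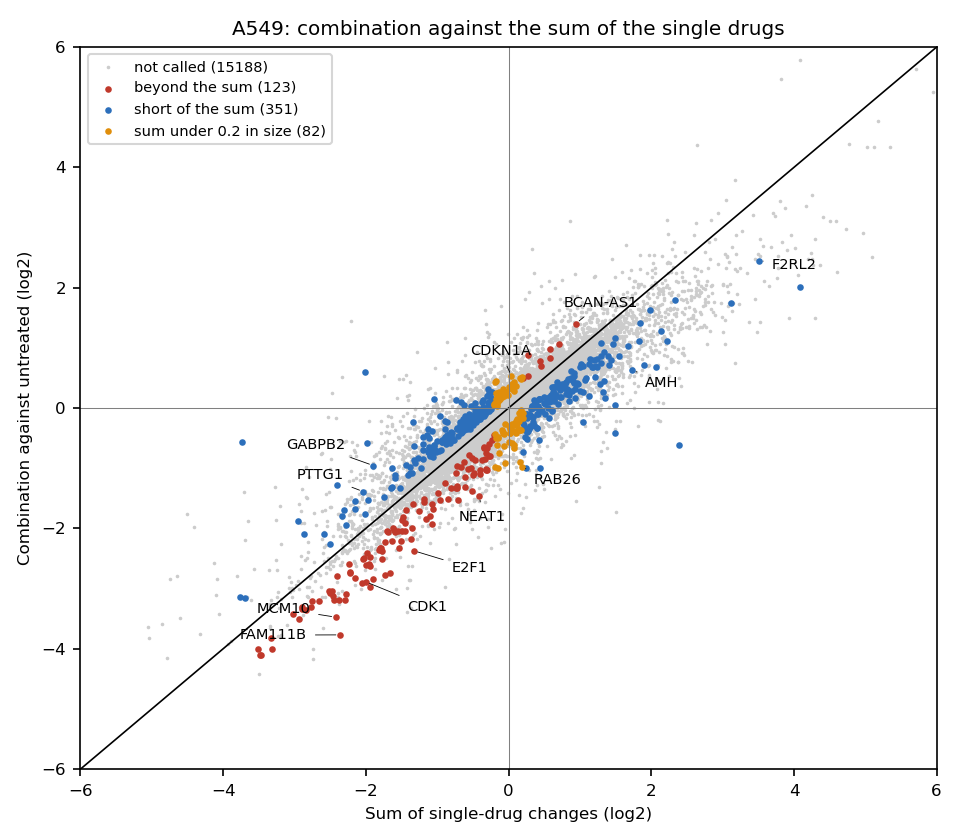
Each point is a gene tested in A549, with the sum of the palbociclib and indisulam changes on the x axis and the change with the combination on the y axis, both as log2 against untreated cells. The line marks equality, red points are the 123 called genes beyond the sum, blue points the 351 short of it and orange points the 82 called genes with a sum under 0.2 in size. Grey points are the 15188 genes not called, and 10 of the genes tested lie outside the axes. Red points are mostly at the lower left, where both the sum and the combination are negative.

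The genes that fell beyond the sum were led by genes of S phase entry, DNA replication and repair. Palbociclib alone lowered 92 of the 114 and indisulam alone lowered 77, against 21.1% and 25.9% of all genes tested that each drug lowered. The class takes only genes with a negative sum, so high shares lowered by the single drugs follow from its rule. Both drugs lowered 56 of the 114, and for 26 the palbociclib change passed the test and the indisulam change did not. Their median change was -1.35 on the log2 scale with palbociclib, -0.34 with indisulam and -2.04 with the combination, against a median sum of -1.49. The median departure was -0.54.

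FAM111B, a protease with a role in DNA replication, had the largest departure in this class (ENSG00000189057, chromosome 11, 59107185 to 59127412). Its levels were 51.1 and 55.5 CPM in UT, 11.3 and 11.5 in PD, 49.2 and 47.5 in IN, and 3.73 and 4.08 in P+I. The combination libraries were the lowest and did not overlap any other group, while the change with indisulam alone did not pass the test. The log2 departure was -1.41 ± 0.125 (SE), with an adjusted p of 9.49e-05 in edgeR, and the level reached was 0.377 of that expected. E2F1, an activator of S phase genes (ENSG00000101412, chromosome 20, 33675477 to 33686385), stood at 41.5 and 38.7 CPM in UT, 16.8 and 18.1 in PD, 34.8 and 38.4 in IN, and 8.05 and 7.45 in P+I. The indisulam libraries lay just below the untreated ones, a change that did not pass the test, and the combination libraries lay below both palbociclib libraries. The departure was -1.04 ± 0.121 (SE) (adjusted p 0.00084, edgeR). Its paralog E2F2, also an activator (ENSG00000007968, chromosome 1, 23506438 to 23531233), was measured at 34.5 and 31.6 CPM in UT, 10.9 and 11.6 in PD, 29.2 and 29.1 in IN, and 4.28 and 5.34 in P+I. Its departure was -1.05 ± 0.141 (SE) (adjusted p 0.00207, edgeR), again with the combination libraries lowest.

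MCM10, a replication factor that helps origins to fire (ENSG00000065328, chromosome 10, 13161558 to 13211110), was measured at 90.0 and 89.3 CPM in UT, 24.1 and 24.5 in PD, 61 and 62.1 in IN, and 8.6 and 7.5 in P+I. Each drug alone lowered it and the combination lowered it further, without overlap between any 2 groups. The departure was -1.05 ± 0.0955 (SE) (adjusted p 9.49e-05, edgeR). CDC6, which loads the MCM helicase at origins, had 143 and 143 CPM in UT, 71.6 and 67.5 in PD, 71 and 71.1 in IN, and 18.9 and 19.2 in P+I. The PD and IN libraries overlapped each other below the untreated ones, and both combination libraries lay below the expected 34.5 CPM. The departure was -0.85 ± 0.074 (SE) (adjusted p 9.49e-05, edgeR). CDK1, the mitotic kinase, had 174 and 175 CPM in UT, 43.8 and 46.3 in PD, 164 and 171 in IN, and 23.3 and 23.9 in P+I. The change with indisulam alone did not pass the test, the combination libraries were the lowest, and the departure was -0.88 ± 0.0716 (SE) (adjusted p 9.08e-05, edgeR). EXO1, a nuclease of mismatch and homologous repair, departed by -1.03 ± 0.0988 (SE) with 62.3 and 64 CPM in UT, 17.9 and 17.1 in PD, 59.3 and 59.1 in IN, and 8.42 and 7.64 in P+I.

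PKMYT1, a kinase that restrains CDK1 (ENSG00000127564, chromosome 16, 2968024 to 2980479), was the second largest of the class by departure, at -1.08 ± 0.156 (SE) (adjusted p 0.00309, edgeR). Its levels were 45.9 and 40.6 CPM in UT, 10.8 and 13.8 in PD, 47.7 and 47.1 in IN, and 6.99 and 6 in P+I, and the combination libraries were the lowest, while the change with indisulam alone did not pass the test. NEAT1, a long noncoding RNA that builds nuclear paraspeckles (ENSG00000245532, chromosome 11, 65422774 to 65445540), also belongs here by its values, with 332 and 426 CPM in UT, 594 and 508 in PD, 182 and 211 in IN, and 108 and 167 in P+I. Palbociclib raised it and indisulam lowered it, and the combination libraries were lowest, with the 2 of them differing more than those of the other genes given above. The departure was -1.05 ± 0.211 (SE) (adjusted p 0.0156, edgeR), and its call was lost in DESeq2 (adjusted p 0.138) and without UT number 1, PD number 1, IN number 1 or IN number 2.

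**Figure D2:**
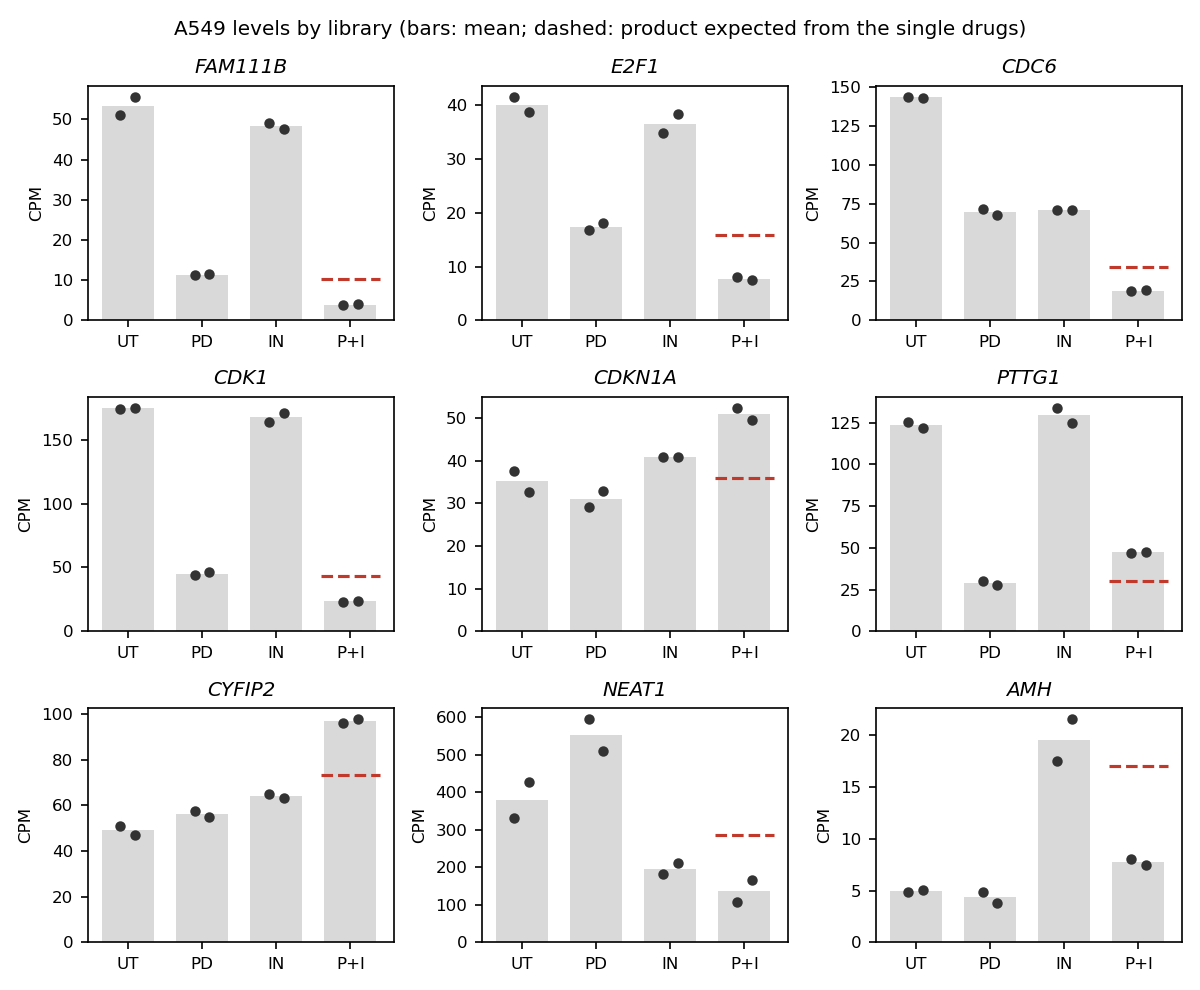
Bars give the mean level in CPM of the 2 libraries of a group in A549, and points are the libraries. The dashed line is the level expected from multiplying the single-drug fold changes. FAM111B, E2F1, CDC6, CDK1, NEAT1 and AMH reached less than the dashed line in the combination, and CDKN1A, PTTG1 and CYFIP2 reached more.

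E2F factors bind a short sequence near the start of such genes, so promoters were read for it. The letters searched were TTTCCCGC and TTTGGCGC on either strand, in the RefSeq promoters of GRCh38.p14 from 250 bases before to 50 bases after the start. Of the 114 genes that fell beyond the sum, 83 had a promoter in the table and 17 of them, 20.5%, held a match, compared with 3.57% of the 11421 tested genes that were matched and 2.31% of all promoters. TTTGAA or TTCGAA, the letters of the cell cycle homology region (CHR), occurred in 32.5% of the 83, 11.3% of tested genes and 16.6% of all promoters. CCAAT, the NF-Y motif, occurred in 49 of the 83, against 36.5% of tested genes and 35.7% of all promoters. Among genes that rose less than predicted, none of 120 promoters held an E2F match. Among those that fell less than predicted, 10 of 167 did (5.99%), and among those that rose beyond the sum, 1 of 6. Where the sum was under 0.2 in size, 3 of 30 promoters of genes above the sum and 2 of 35 of genes below it held one. A match is letters in a window and does not show binding. Palbociclib alone lowered 92 of the 114, and no share was taken for genes it lowered that were not called. Whether the matches go with the departure or with the fall under palbociclib was not tested. The 60-base stretches that hold the match before the start are given for the 6 largest departures with one, each read 5′ to 3′ along the gene's strand with the match in capitals.

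E2F2, chr1:23531242-23531301, minus strand: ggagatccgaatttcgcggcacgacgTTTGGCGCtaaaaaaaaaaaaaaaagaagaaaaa
E2F1, chr20:33686386-33686445, minus strand: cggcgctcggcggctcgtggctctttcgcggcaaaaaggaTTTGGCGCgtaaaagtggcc
DTL, chr1:212035688-212035747, plus strand: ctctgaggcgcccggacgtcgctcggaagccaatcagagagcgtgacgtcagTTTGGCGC
HROB, chr17:44141858-44141917, plus strand: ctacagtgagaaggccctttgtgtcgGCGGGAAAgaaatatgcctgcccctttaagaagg
CDCA5, chr11:65084052-65084111, minus strand: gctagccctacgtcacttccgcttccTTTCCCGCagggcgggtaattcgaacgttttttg
CDC25A, chr3:48188428-48188487, minus strand: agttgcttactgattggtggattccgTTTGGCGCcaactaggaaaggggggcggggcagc

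The 7 lists of cell cycle genes were laid together to describe the class. They held 202 tested genes, of which 54 were called, 26.7% against 3.53% of all genes tested, with 47 below the sum and 7 above. The median departure of the 202 was -0.14 against -0.01 for all genes. All 47 were beyond a fall, making up 41.2% of the 114 genes of that class. Palbociclib alone lowered 180 of the 202, so most of their sums were negative. A call below a negative sum of at least 0.2 in size enters this class by its rule. With 1 library left out, the number below the sum ran from 18 (without IN number 2) to 44 (without P+I number 2), and it was 26 without UT number 1, 29 without UT number 2, 24 without PD number 2 and 23 without IN number 1. Of the genes in the lists, 148 of the 202 did not pass the test. Indisulam alone lowered 28 of the 47 and raised 5, and for 14 its change did not pass the test.

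Of all genes tested, 2.05% were called below the sum, 1.49% above it and 3.53% in either direction. Replication origin and fork genes, which build and run the replisome, were called below the sum in 17 of 53, and none were above. Their median departure was -0.19, and the called members included the MCM helicase subunits MCM2 to MCM7, CDC45, GINS2 and POLE. Homologous recombination and Fanconi anaemia genes, which repair broken and crosslinked DNA, were called below in 11 of 29, with a median of -0.29. With 1 library left out, 9 to 16 of the replication genes and 2 to 9 of the repair genes were called, the lowest for both without IN number 2, and none above the sum. Among the repair genes were BRCA1, at -0.45 ± 0.0934 (SE), and POLQ, at -0.81 ± 0.129 (SE). Mitotic spindle and kinetochore genes split, with 11 of 59 called below the sum and 4 above, and a median of -0.12. Without IN number 2, 3 were below and 3 above. Of 8 condensin subunits, NCAPH and NCAPG were below and NCAPD2 was above the sum. RRM2, a subunit of ribonucleotide reductase, was the one called gene of 13 in deoxynucleotide synthesis, at -0.69 ± 0.0988 (SE).

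The 4 spindle genes above the sum all fell less than predicted. PTTG1, securin, which guards sister chromatid cohesion, had 126 and 122 CPM in UT, 30.2 and 28 in PD, 134 and 125 in IN, and 47.2 and 47.3 in P+I. Palbociclib lowered it, the change with indisulam did not pass the test, and both combination libraries were higher than the palbociclib libraries. The departure was 0.64 ± 0.0775 (SE) (adjusted p 0.000961, edgeR). KIF20A, a kinesin of cytokinesis, departed by 0.61 ± 0.0786 (SE), DLGAP5 by 0.50 ± 0.0755 (SE) and CENPK, a kinetochore protein, by 0.54 ± 0.122 (SE).

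**Figure D3:**
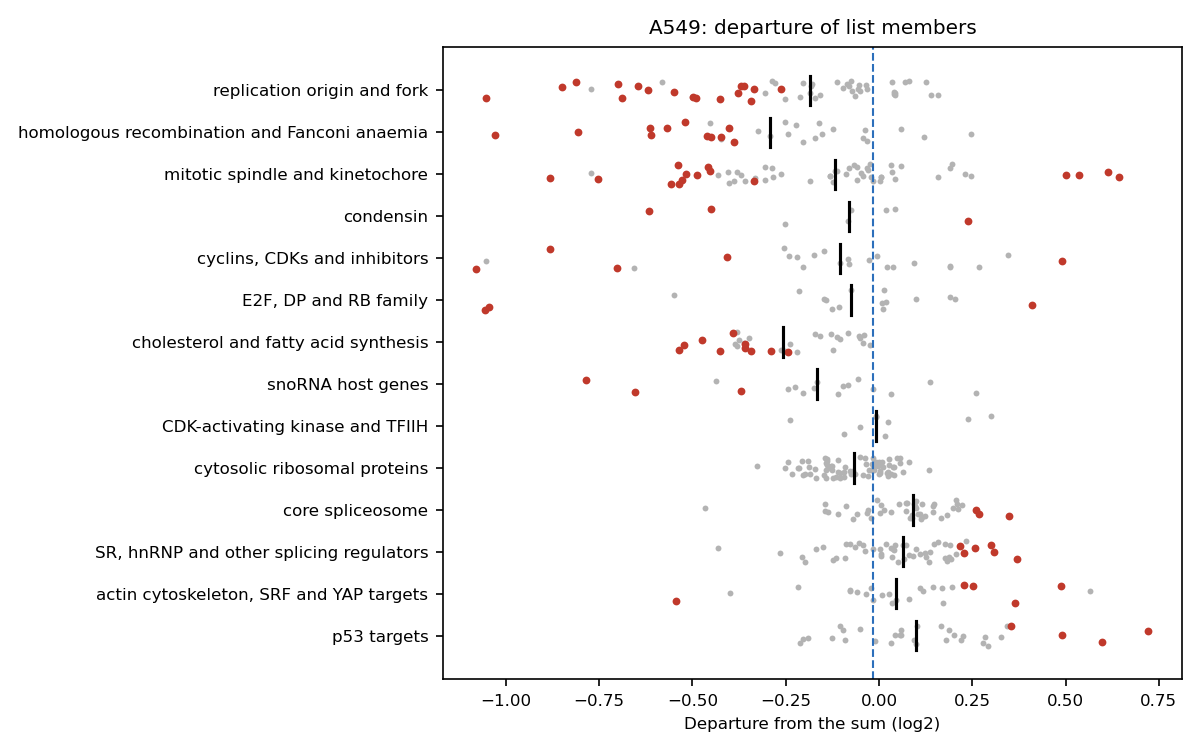
Each point is a tested member of a gene list in A549 placed at its departure from the sum on the log2 scale, red where the adjusted p was under 0.05. Black ticks are list medians and the dashed line is the median of all genes, -0.01. The medians of the replication, repair and cholesterol lists lie left of the line, with 43 of 53, 26 of 29 and 32 of 32 members below 0, and those of the splicing lists and the p53 targets lie right of it.

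Few genes rose beyond the sum. BCAN-AS1, a long noncoding RNA named after the brevican gene (ENSG00000272068, chromosome 1, 156637783 to 156641004), had 15.9 and 15.7 CPM in UT, 20.4 and 21.4 in PD, 22.9 and 22.9 in IN, and 40.2 and 43.4 in P+I. Each drug raised it and the combination raised it more, without overlap, by a departure of 0.46 ± 0.102 (SE) (adjusted p 0.0243, edgeR). CYFIP2, a member of the WAVE complex that regulates actin (ENSG00000055163, chromosome 5, 157266079 to 157395595), had 51.2 and 47.1 CPM in UT, 57.7 and 55 in PD, 65.1 and 63.1 in IN, and 96 and 97.8 in P+I, and its departure was 0.40 ± 0.0764 (SE) (adjusted p 0.0129, edgeR). LINC01963, a long noncoding RNA (ENSG00000260804, chromosome 2, 216217045 to 216220192), departed by 0.60 ± 0.135 (SE), NUDT3, a diphosphoinositol polyphosphate phosphohydrolase, by 0.37 ± 0.0761 (SE), and UBXN2B, a cofactor of the p97 ATPase, by 0.35 ± 0.0687 (SE). BCAN-AS1 and LINC01963 lost their calls in DESeq2 (adjusted p 0.0587 and 0.0592) and without any 1 of the UT, PD or IN libraries, and the other three lost theirs in 4 or 5 of those 6 cases. The remaining 4 were HAVCR1, HNRNPL, UBFD1 and TRNP1, named after their values were seen since the class is small. HNRNPL, a splicing regulator, departed by 0.26 ± 0.0588 (SE) and HAVCR1, a membrane receptor, by 0.30 ± 0.0707 (SE). For HNRNPL palbociclib alone lowered the level (-0.65 on the log2 scale) and indisulam alone raised it (1.23). Its mean in the combination, 427 CPM, was below the 562 CPM of indisulam alone (log2 change -0.40, adjusted p 2.69e-06, edgeR). On the CPM scale its departure was -47.9 CPM.

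For 82 called genes the single-drug changes were small or opposed each other, and the combination still moved away from their sum. CDKN1A, the p53-induced CDK inhibitor p21 (ENSG00000124762, chromosome 6, 36676460 to 36687337), had 37.6 and 32.7 CPM in UT, 29.2 and 32.8 in PD, 40.8 and 40.9 in IN, and 52.3 and 49.5 in P+I. Both combination libraries were above every other library. Indisulam alone raised it, by less, and the palbociclib change did not pass the test. The departure was 0.49 ± 0.104 (SE) (adjusted p 0.021, edgeR), and the call was lost without UT number 1, PD number 1, IN number 1 or IN number 2. OLFML2A, an extracellular matrix protein (ENSG00000185585, chromosome 9, 124777133 to 124814885), departed by 0.63 ± 0.105 (SE) and LRRN2, a leucine-rich repeat membrane protein, by 0.62 ± 0.153 (SE). OLFML2A lost its call in 3 of 18 alternatives and LRRN2 in 8, DESeq2 among them. In the other direction, RAB26, a small GTPase (ENSG00000167964, chromosome 16, 2140803 to 2154165), had 18.6 and 16.2 CPM in UT, 24.5 and 26.8 in PD, 13.9 and 12.8 in IN, and 8.33 and 9.28 in P+I. Palbociclib raised it, indisulam lowered it slightly and the combination libraries were lowest, with a departure of -1.17 ± 0.14 (SE) (adjusted p 0.000961, edgeR). ALDH16A1, an aldehyde dehydrogenase family member (ENSG00000161618, chromosome 19, 49453225 to 49471050), had 21.7 and 20.7 CPM in UT, 19.9 and 19.8 in PD, 21 and 22.7 in IN, and 12.1 and 10.4 in P+I. Neither drug alone moved it past the test, and in the combination it stood at about 0.551 of the expected level (-0.86 ± 0.122 (SE), adjusted p 0.00293, edgeR).

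The p53 target list, whose products arrest the cycle or repair DNA, held 4 called members of 32, all above the sum, beside 1.49% of all genes called above. The 4 were CDKN1A, MDM2, DDB2 and POLH, and the list median was 0.10. Without IN number 1 the list had 1 called member, and without IN number 2 the list had 2. MDM2, the ubiquitin ligase that limits p53, had 148 and 152 CPM in UT, 136 and 129 in PD, 177 and 180.4 in IN, and 207 and 197 in P+I, with a departure of 0.35 ± 0.0625 (SE) (adjusted p 0.00954, edgeR). DDB2 and POLH, which act in repair and lesion bypass, fell with each drug alone and fell less than predicted with both, by 0.60 ± 0.0859 (SE) and 0.72 ± 0.123 (SE). For POLH the combination libraries overlapped those of indisulam alone.

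Genes that rose less than predicted were of mixed function. Of the 161, palbociclib alone raised 125 and indisulam alone raised 106, against 22.0% and 23.3% of all genes tested, and both raised 75. Only genes with a positive sum enter this class, so high shares raised by the single drugs follow from its rule. For 57 of the 75 the combination was no higher than the larger single-drug change. AMH, anti-Müllerian hormone (ENSG00000104899, chromosome 19, 2249309 to 2252073), had 4.91 and 5.07 CPM in UT, 4.88 and 3.83 in PD, 17.5 and 21.5 in IN, and 8 and 7.45 in P+I. Indisulam raised it in both libraries, and the combination libraries lay between the indisulam and the other groups, a departure of -1.10 ± 0.211 (SE) (adjusted p 0.013, edgeR). CCDC78, a centriole assembly protein (ENSG00000162004, chromosome 16, 722582 to 726954), departed by -1.39 ± 0.193 (SE) and F2RL2, a thrombin receptor (ENSG00000164220, chromosome 5, 76615482 to 76623413), by -1.06 ± 0.25 (SE). F2RL2 had 1.24 and 2.03 CPM in UT, 4.92 and 4.52 in PD, 6.72 and 6.07 in IN, and 8.37 and 9.37 in P+I. The combination was above either drug alone but under the sum. F2RL2 counts in UT were 24 and 36, and the departure was -1.59 from the number 1 libraries and -0.50 from number 2. On the CPM scale the departure of F2RL2 was -0.61 CPM. EGLN2, an oxygen sensor (ENSG00000269858, chromosome 19, 40798996 to 40808434), was lowered by the combination although the sum was a rise, with a departure of -1.23 ± 0.285 (SE), and its counts share the locus with overlapping genes. FTX, a noncoding RNA (ENSG00000230590, chromosome X, 73940435 to 74293574), departed by -0.96 ± 0.239 (SE). Calls were lost without UT number 1 or IN number 2 for AMH, EGLN2, F2RL2 and FTX, without PD number 1 for AMH, F2RL2 and FTX, without PD number 2 or IN number 1 for EGLN2, F2RL2 and FTX, and without UT number 2 for AMH.

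Genes that fell less than predicted were the largest class. Of the 190, palbociclib alone lowered 128 and indisulam alone lowered 155, against 21.1% and 25.9% of all genes tested, and both lowered 94. Since a negative sum is required for this class, high shares lowered by the single drugs follow from its rule. For 68 of the 94 the combination lay no lower than the larger single-drug fall. GABPB2, a subunit of the GA-binding transcription factor (ENSG00000143458, chromosome 1, 151070578 to 151125542), had 15.2 and 13.6 CPM in UT, 10.8 and 11 in PD, 5.48 and 4.81 in IN, and 7.45 and 7.45 in P+I. Indisulam libraries were the lowest and the combination libraries lay above them, without overlap. The departure was 0.94 ± 0.156 (SE) (adjusted p 0.00676, edgeR). POMK, a kinase of dystroglycan glycosylation, departed by 0.86 ± 0.158 (SE), and ELOVL2, an enzyme of fatty acid elongation (ENSG00000197977, chromosome 6, 10980759 to 11044305), by 0.78 ± 0.192 (SE). Carboxypeptidase M, encoded by the gene CPM, departed by 0.83 ± 0.158 (SE). CELSR1P1, a pseudogene (ENSG00000237517, chromosome 22, 18985836 to 18994501), departed by 1.08 ± 0.28 (SE) at low levels, and its counts may be shared with near-identical copies. Without IN number 2 the calls of all 5 genes were lost, and over all alternatives they were lost in 1 of 18 for GABPB2, 4 of 18 for POMK and CPM, 9 of 18 for ELOVL2, DESeq2 among them, and 10 of 17 for CELSR1P1.

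The splicing factors that were called lay above the sum. Of the 46 core spliceosome members 3 were called, all above, against 1.49% of all genes called above, with a median departure of 0.09. The called members were PRPF8, SNRPD3 and PRPF38A, at 0.26 ± 0.0592 (SE), 0.27 ± 0.0656 (SE) and 0.35 ± 0.0841 (SE). SR, hnRNP and other splicing regulators had 6 called of 53, also all above, and a median of 0.06. Neither list had a call without IN number 1 or without IN number 2, and with no filter on low counts the second list had 11 above and 2 below. HNRNPA3 had 451 and 433 CPM in UT, 293 and 293 in PD, 533 and 533 in IN, and 428 and 448 in P+I. Palbociclib lowered it, indisulam raised it, and the combination libraries overlapped the untreated ones, with a departure of 0.31 ± 0.0555 (SE) (adjusted p 0.0101, edgeR). The CDK-activating kinase and TFIIH list, with 9 tested, and the 76 cytosolic ribosomal proteins held no called gene.

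Genes of cholesterol and fatty acid synthesis, which the SREBP factors control, lay below the sum. Of 32 tested genes 10 were called, all below, against 2.05% of all genes called below, and the list median was -0.26. All 32 departures were below 0, and over all alternatives at least 29 were. No member was called without IN number 1 or without IN number 2, while 3 were without UT number 1, 2 without UT number 2 and 4 without PD number 2. INSIG1, which retains the SREBP complex in the endoplasmic reticulum, had 31.2 and 32 CPM in UT, 26.3 and 27.2 in PD, 42.6 and 40.6 in IN, and 23 and 25.7 in P+I. Indisulam alone raised it, palbociclib lowered it slightly and the combination libraries were the lowest, by a departure of -0.54 ± 0.0966 (SE) (adjusted p 0.0101, edgeR). The combination did not differ from palbociclib alone past the test (log2 change -0.14 ± 0.0698 (SE), adjusted p 0.111, edgeR). HMGCS1 departed by -0.36 ± 0.0637 (SE), MSMO1 by -0.52 ± 0.0966 (SE) and DHCR7 by -0.36 ± 0.0674 (SE). Levels of SCD, the stearoyl-CoA desaturase, ran from 715 to 1101 CPM over the 8 libraries.

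Among noncoding transcripts, 3 of 17 snoRNA host genes were called, all below, with a median of -0.17, though none without UT number 1, PD number 2, IN number 1 or IN number 2. These were SNHG32, SNHG12 and GAS5, and of all genes tested 2.05% were called below the sum. GAS5 had 121 and 129 CPM in UT, 138 and 136 in PD, 206 and 212 in IN, and 169 and 186 in P+I and departed by -0.37 ± 0.0715 (SE). Among protein-coding genes, GOLGA8A (ENSG00000175265, chromosome 15, 34378935 to 34437808) departed by -1.06 ± 0.228 (SE) and GOLGA8B by -0.74 ± 0.131 (SE). These 2 genes are close paralogs, so reads may be split between them. For NEAT1, FTX and GOLGA8A the combination library with the lower share of reads in no feature, number 1, had the lower level. Without it the departures were -0.73, -0.62 and -0.85, and without number 2 they were -1.37, -1.30 and -1.21. The part of this share in the result was not tested.

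Against 3.53% of all genes called, cyclins, CDKs and their inhibitors had 5 called of 25, with CCNA2, CDK1, CDC25A and PKMYT1 below the sum and CDKN1A above. The E2F, DP and RB family had 3 of 17, with E2F1 and E2F2 below and RB1 above, at 0.41 ± 0.0734 (SE). In the list of actin cytoskeleton, SRF and YAP targets 4 of 25 were above the sum and 1 below, and the number above was 1 without IN number 1 or IN number 2. AXL, a receptor tyrosine kinase, had 148 and 142 CPM in UT, 97.4 and 101 in PD, 75.7 and 80.7 in IN, and 74.5 and 75.6 in P+I. Each drug lowered it, and the combination did not differ from indisulam alone past the test, with a departure of 0.49 ± 0.0678 (SE) (adjusted p 0.00256, edgeR). TPM1, tropomyosin, departed by 0.37 ± 0.0608 (SE). Single calls stood in the lists of NRF2 targets (AKR1B10, 1 of 24), interferon-stimulated genes (OAS3, 1 of 36), stress and unfolded protein response (DNAJB9, 1 of 30), chaperones (STIP1, 1 of 23), secreted factors of senescent cells (EREG, 1 of 28), decay factors (SMG6, 1 of 15) and the MYC network (MXD4, 1 of 12). Lysosome and autophagy genes had 2 of 34 and nuclear lamins and partners 2 of 11, while ERK output genes (21 tested), splicing factor kinases (10) and the BCL2 family (11) had 0.

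Of 10 genes that act in the pathways of the drugs or mark proliferation and senescence, CDKN1A and LMNB1 passed the test. RBM39 mRNA, the target of indisulam, had 173 and 178 CPM in UT, 154 and 146 in PD, 367 and 362 in IN, and 336 and 336 in P+I. Indisulam libraries and combination libraries were higher than the others and the departure was 0.11 ± 0.0571 (SE) (adjusted p 0.326, edgeR). CCNH, cyclin H, departed by 0.30 ± 0.133 (SE) (adjusted p 0.24, edgeR), with 27 and 23.7 CPM in UT, 25.1 and 24.3 in PD, 9.12 and 8.3 in IN, and 10.1 and 10.8 in P+I. CDK7, MNAT1, CDK2, CCNE1 and MKI67 departed by -0.05 ± 0.0832 (SE), -0.0082 ± 0.0991 (SE), -0.17 ± 0.0773 (SE), 0.04 ± 0.113 (SE) and 0.04 ± 0.108 (SE), and none passed the test, which does not show that they were additive. CCNE2, cyclin E2, departed by -1.05 ± 0.282 (SE) and missed the threshold, with an adjusted p of 0.0555 in edgeR. LMNB1, a nuclear lamin that is lost in senescence, departed by -0.44 ± 0.0866 (SE) (adjusted p 0.0134, edgeR), a call lost without either UT or either IN library, from 193 and 194 CPM in UT, 48.6 and 43.1 in PD, 111 and 111 in IN, and 18.4 and 20 in P+I.

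In the senescence sets, against 3.53% of all genes called, the Casella set had 0 of 37 tested genes called. The Purcell set had 2 of 31, the Hernandez set 1 of 29, the Hernandez SASP set 2 of 19 and the Fridman set 8 of 68, with 4 above and 4 below. Of the called Fridman genes CCN2, which encodes connective tissue growth factor, was below the sum (-0.54 ± 0.129 (SE)) and CDKN1A above it. NME2 was also called below, at -1.43 ± 0.328 (SE), from low counts at a locus shared with an overlapping read-through gene. Genes named ZNF, most of them zinc finger factors, had 7 called of 397 and single-exon protein-coding genes 3 of 202.

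Departure depends on the scale. On the CPM scale itself, where changes are added and not multiplied, 510 of the 556 called genes departed in the same direction and 46 in the other. Of the 46, 40 were genes that fell beyond the sum, and for 24 genes of that class the sum of the CPM changes would put the level below 0. MCM10 was one, with a summed expectation of -3.74 CPM and a departure of 11.8 CPM. CDC6, RRM2, BRCA1 and LMNB1 also took the other direction, at 21.8, 47.6, 14.7 and 56.1 CPM, as did 24 of the 47 cell cycle genes that fell beyond the sum. FAM111B, E2F1 and CDK1 departed in the same direction on both scales, by -2.53, -6.19 and -14.7 CPM.

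The same contrast was fitted in the SUM159 libraries, where 704 of 16080 genes, 4.38%, departed from the sum. 123 genes were called in both lines, 22.1% of those of A549 and 17.5% of those of SUM159, and all 123 had the same sign. Of the 114 A549 genes that fell beyond the sum, 111 were tested in SUM159 and 54 were called there with the same sign. The median departure of the 111 was -0.54 in A549 and -0.30 in SUM159. The 111 were chosen by their A549 departures, so a median of larger size in A549 follows from the choice. It does not show a stronger departure in A549. In the fit of all 16 libraries, the departure differed between the lines for 21 of 17764 genes, 0.118%, and for 16 of the 556. FAM111B differed by -0.99 ± 0.155 (SE) on the log2 scale (A549 minus SUM159, adjusted p 0.00897, edgeR) and E2F1 by -0.80 ± 0.157 (SE) (adjusted p 0.0335, edgeR). For MCM10 and CDKN1A the difference did not pass the test, at -0.60 ± 0.133 (SE) (adjusted p 0.0802, edgeR) and 0.58 ± 0.132 (SE) (adjusted p 0.081, edgeR).

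**Figure D4:**
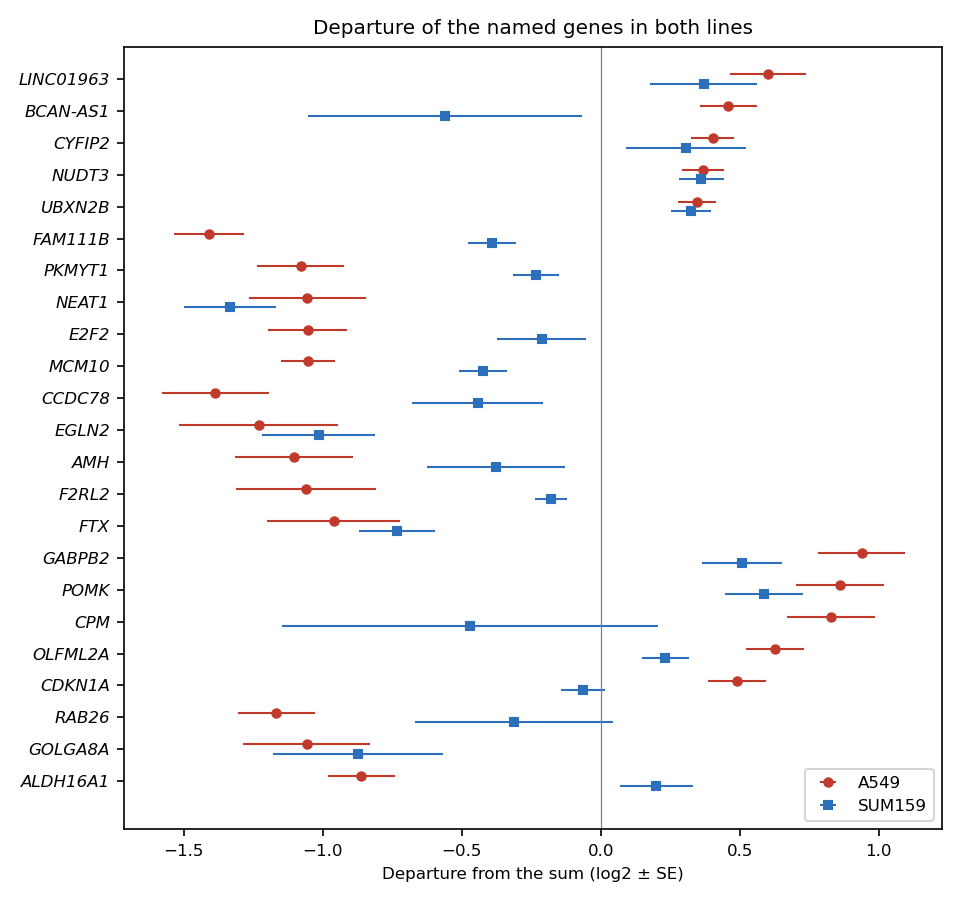
Departures from the sum with their standard errors are given on the log2 scale for 23 of the 26 class-named genes, in A549 as circles and in SUM159 as squares. The 3 genes that were not tested in SUM159 are left out. FAM111B, at -1.41 in A549 and -0.39 in SUM159, lies far apart between the lines, and NEAT1 and NUDT3 lie close.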

How the data were processed

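Poly(A) RNA of A549 and SUM159 cells was read as 75 bp pairs from stranded libraries. The deposited values are raw counts per Ensembl gene, made by the authors with no normalization and no pooling of replicates. Per the submitters' processing notes, HISAT2 2.2.1, HTSeq and build GRCh38 were used, while the strand setting is not given in the sources used here, so counts of overlapping genes are uncertain. Between 14.2% and 16.4% of A549 reads fell in no feature, were ambiguous or were not uniquely aligned, and were left out. Symbols and coordinates came from GENCODE 44 (58207 of 58676 identifiers matched).

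The 8 A549 libraries were fitted with edgeR 4.0.16 in R 4.3.3 (filterByExpr, TMM scaling, quasi-likelihood test, Benjamini-Hochberg adjustment), with 1 coefficient per group. CPM values use TMM-scaled library sizes. Named genes were called, had a symbol, averaged 5 CPM or more and kept their sign in both numbers. These were the 5 largest departures in each class (3 in each direction for a sum under 0.2), 10 genes of the drugs' pathways, proliferation and senescence, and up to 3 called members of each list without the CPM minimum. Genes and lists were chosen with earlier results of these data known. On simulated counts, edgeR recovered 73.9% of 199 genes moved by 1 among 15625 for this contrast, with 10.4% of its 164 calls false. DESeq2 recovered 68.3%, with 6.85% false. Both false shares exceeded the adjusted p threshold of 0.05. The simulated move of 1 was larger than the median called departure of 0.42, so recovery of smaller departures was not tested. No duplicate was a repeated deposit: chi-square over degrees of freedom between duplicates ran from 2.33 to 6.56. DESeq2 1.42.0, limma 3.58.1 voom, other scalings and filters, a replicate block, thinning and left-out libraries were the alternatives. Of the 88 named genes, 61 overlap another gene, 23 on the same strand. Floors cover counting error only.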

Additional observations from a re-analysis of the deposited data

Results flagged for a closer look

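In the fit of all 16 libraries, the departure from the sum differed between the cell lines for 7 of the named genes, each at an adjusted p under 0.05 in edgeR. As the departure in A549 minus that in SUM159, the log2 difference was -0.99 for FAM111B, -1.03 for ALDH16A1, -0.80 for E2F1, 0.75 for POLH, 0.62 for PTTG1, 0.55 for BIRC3 and 0.44 for TPM1. Relative to the sum, FAM111B, E2F1 and ALDH16A1 were thus lower in A549 than in SUM159, and POLH, PTTG1, BIRC3 and TPM1 were higher.

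Reads outside annotated features were not used in any comparison. Their share averaged 5.84% with indisulam and 5.25% with the combination in A549, above the 4.02% and 4.57% of the untreated libraries. This share was not tested against the departures.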

How the results depend on the processing

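Without a filter on low counts 998 genes were called, 662 of them short of the sum, and in the fit of all 16 libraries 931, with 615 short. DESeq2 called 343, with 77 beyond and 218 short. An adjusted p under 0.01 left 100, with 42 beyond and 48 short, and an absolute departure of at least 1 left 31, with 7 beyond and 22 short. With 1 library left out the calls ran from 52 to 976, those beyond from 31 to 155 and those short from 19 to 648, and the lone library of a group was assumed to vary like the others. Of the named genes that were called, 17 kept direction and call in all 18 other fits, and CCDC78 in the 17 that gave it a value, with no adjusted p from DESeq2. Among the 17 were FAM111B, E2F1, E2F2, MCM10, CDC6, CDK1, EXO1, PKMYT1, PTTG1, RAB26 and ALDH16A1. No called named gene changed direction. CDKN1A lost its call without UT number 1, PD number 1, IN number 1 or IN number 2. The count of genes whose departure differed between the lines went from 21 to 3 at an adjusted p under 0.01, an alternative chosen after seeing the data.

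Genes without a call changed sign. MNAT1 departed by 0.0153 with relative log expression scaling, 0.000535 with no filter, 0.0173 in the fit of 16 libraries, 0.0470 with thinning and 0.0157 in DESeq2. With 1 library left out it ran from -0.0683 to 0.0552, CCNE1 from -0.0118 to 0.140 and MKI67 from -0.0865 to 0.167.

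The replicate block gave 470 calls, 111 beyond and 294 short. Same-numbered libraries correlated in their deviations from group means at -0.104 to 0.101. Such low correlations do not exclude that same-numbered libraries were handled together. Thinned to the smallest library, 470 genes were called. In all, 2940 genes had an unadjusted p under 0.05.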
